A study of Drosophila melanogaster with 6 samples.

Results

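Proteasome subunit genes are described here in eye-antennal discs of Drosophila melanogaster, the larval epithelium from which the eyes, antennae and head of the fly develop. Members were all genes with a probe set of their own whose symbol begins with Prosalpha, Prosbeta, Rpn and a digit, or Rpt and a digit, and each was read from its brightest probe set. They came to 40 of 11982 genes so represented: 12 subunits of the core particle, 14 of the regulatory particle and 14 paralogues with a T or an R after the subunit number. The annotation holds 48 genes with such symbols. Of the others, Prosalpha1 and Prosalpha1R share 1 probe set, and Prosbeta1, Rpn9, Rpn10, Rpt1, Rpt6 and Rpt6R were not analysed here.

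The proteasome is the protease that degrades proteins tagged with ubiquitin. Its barrel-shaped core is built of alpha rings, which gate the entrance, around beta rings, which hold the proteolytic sites. The regulatory particle caps the barrel. Its base, with a ring of Rpt ATPases, unfolds substrates, and its lid, built of Rpn subunits, removes the ubiquitin. In Drosophila, several subunits have a duplicate gene known from the testis.

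Discs came from wandering third-instar larvae of the w1118 strain grown at 25 °C. The tumour genotype was ey-Gal4 GS(2)88A8 UAS-Dl/+, in which a driver active in the developing eye turns on the Notch ligand gene Delta and the genes beside the GS insertion, known as lola and psq. The control genotype, GS(2)88A8 UAS-Dl/+, had both responders and no driver. Since no group had the driver alone, its own effect cannot be told apart from that of the genes it drives. Each genotype had 3 biological replicates, each a pool of disc pairs stated as 300, hybridised to 1 array each. Values are log2 intensities, and a difference of 1 is a change of 2-fold.

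All 13 disc epithelium markers examined (among them ey, so, dac and Dll) reached the bound of 4 used for a measured level, while all 11 male germline markers lay at the floor of the scale, 2.17, or no higher than 2.18. The replicate 1 arrays stood apart in both genotypes on the 18S rRNA control and on an actin control. Their 18S rRNA control read 12.5 in tumour and 10.3 in control, against 5.5 to 7.19 on the other 4 arrays, and their actin 3'-minus-5' difference 1.03 and 0.86 against 0.35 to 0.59. Other 3' and 5' controls were mixed, some setting both replicate 1 arrays apart and some not. In a GAPDH control the 3' and 5' probe sets read 13.41 and 12.97 on control replicate 1. On control replicate 2 they read 13.50 and 13.02, a gap no narrower. Deviations from the genotype means correlated at 0.467 to 0.794 between same-numbered arrays, but also at 0.668 between tumour 2 and control 3 and 0.473 between tumour 3 and control 2, so the values set replicate 1 apart without telling replicates 2 and 3 from each other. Each comparison was made without the replicate number (unpaired) and with it as a block (paired). In these whole discs, fewer cells of a type and less RNA per cell cannot be told apart. Some cell type markers differed with genotype: 8 of 13 disc epithelium markers (eya, ey, dac, toy, chp, elav, Optix and so) were called higher and 1 (Dll) lower in the paired fit, 2 of 9 haemocyte markers (PPO1 and PPO2) lower, and 2 of 4 tested muscle markers (TpnC73F and up) lower. Over all tested genes 4.06% were called higher and 5.38% lower in that fit. In the unpaired fit TpnC73F was the 1 marker called (adjusted p = 0.0451). The summed haemocyte signal, in log2, was 10.9 to 11.2 in tumour and 11.7 to 12.1 in control, that of muscle 11.6 to 11.7 and 12.2 to 12.4, and that of disc epithelium 15.0 to 15.2 and 14.3 to 14.7. Of 5 tested glial markers 1 (moody) was called lower. The summed signal of all 6 glial markers went the other way, 14.02 to 14.03 in tumour and 13.66 to 13.98 in control. The muscle marker Him and the glial marker gcm lay at the floor. None of 3 fat body and 2 tracheal markers reached 4 on 3 arrays, although the fat body markers Fbp1, Fbp2 and Lsp2 read 5.52, 5.55 and 6.51 on control replicate 3 and lower than 4 on the other 5 arrays. The tracheal marker vvl read 4.74 on control replicate 1, and btl 4.04 and 4.83 on control replicates 2 and 3. The summed tracheal signal was 3.80 to 4.2 in tumour and 4.65 to 5.21 in control, without overlap. The part of cell makeup in the differences below was not tested.

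All 26 core and regulatory genes had a lower mean in tumour than in control discs, by similar small amounts. Their differences ran from -0.41 to -0.19 log2 with a median of -0.28, or 1.14-fold to 1.33-fold lower. The median over all 6447 tested genes was 0.05. In the paired fit 20 of the 26 fell and 0 rose, where 5.38% of all tested genes were called lower and 4.06% higher (limma, p-values adjusted by Benjamini-Hochberg across every tested probe set, threshold 0.05). The share called lower was greater, 12.01%, among 333 other tested genes with means in the same range as the 26. In the unpaired fit 0 of the 26 were called, where 0.372% of tested genes were called lower. Their unpaired adjusted p lay between 0.448 and 0.971, and 5 of the 26 had an unadjusted p under 0.05. Of all 6447 tested genes 321 were lower at an unadjusted p under 0.05 in that fit. With replicates 2 and 3 alone 9 were called lower, against 4.19% of tested genes. A block that only separates replicate 1 from replicates 2 and 3, chosen after seeing the data, called 25 lower, all but Rpn6 and including the 20, where 7.38% of tested genes were called lower. The paired fit without replicate 1 called 14 lower (4.37% of tested genes), without replicate 2 called 9 (3.66%) and without replicate 3 called 0 (0% of tested genes, with 22 of the 26 at an unadjusted p under 0.05). In that last fit 953 of the 6447 tested genes had an unadjusted p under 0.05, counting both directions.

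**Figure D1:**
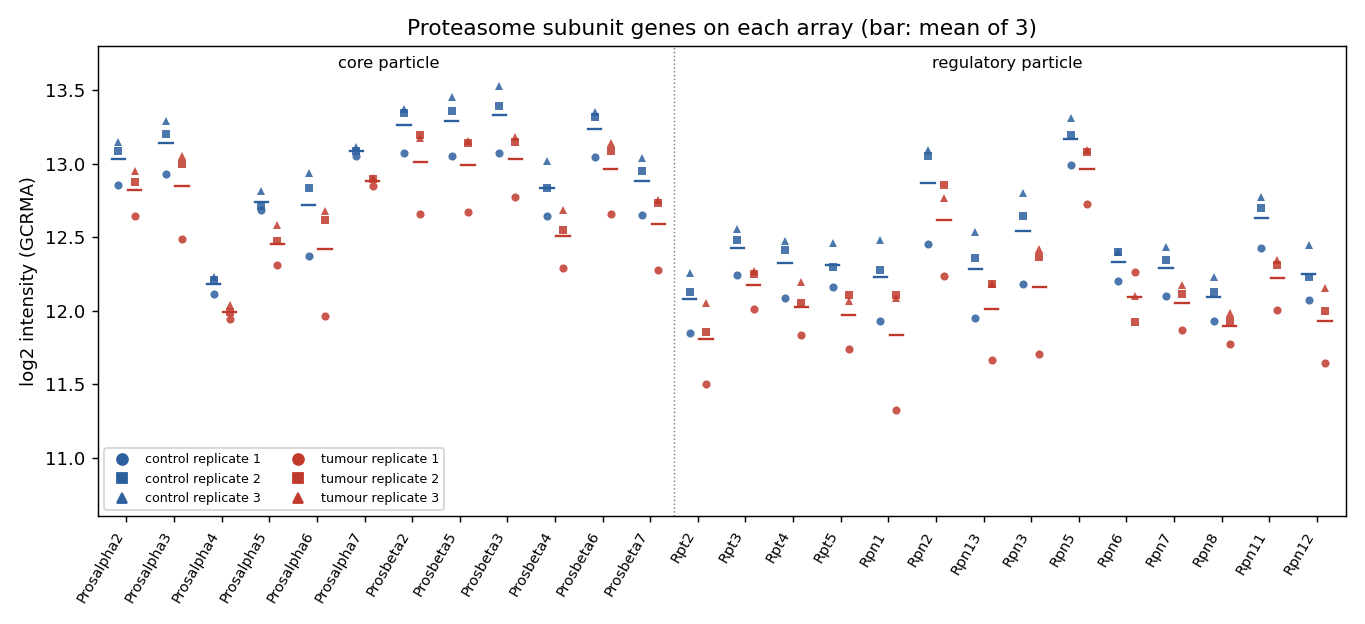
Log2 intensity of the 12 core and 14 regulatory subunit genes on each of the 6 arrays, control in blue and tumour in red, with a symbol for each replicate number and a bar at the mean of 3. The tumour bar lies below the control bar for all 26 genes, and replicate 1 is the lowest of its genotype in all 26 in control and in 25 in tumour.

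Counted by pairs of arrays, 25 of the 26 genes were lower in tumour in all 3 same-number pairs, a pattern held by 20.6% of tested genes. Among the 333 other tested genes with means in the same range, 11.9 to 13.2, 30.3% held it. Of the 26 only Rpn6 departed, in pair 1. All tumour arrays lay below all control arrays for 5 genes (Prosalpha4, Prosalpha5, Prosalpha7, Rpt5 and Rpn11), or 19.2% of the 26. The share was 7.2% of tested genes and 11.1% of the 333. In the other 21 of the 26 the genotypes overlapped, in each case because control replicate 1 lay below the highest tumour array. Averaged over the 26 genes, the level was 12.15, 12.49 and 12.54 in tumour replicates 1 to 3 and 12.47, 12.73 and 12.83 in control replicates 1 to 3. The pair differences of this average were -0.32, -0.24 and -0.28. The median of tested genes differed by 0.06, -0.01 and 0.05 in the same pairs.

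**Figure D2:**
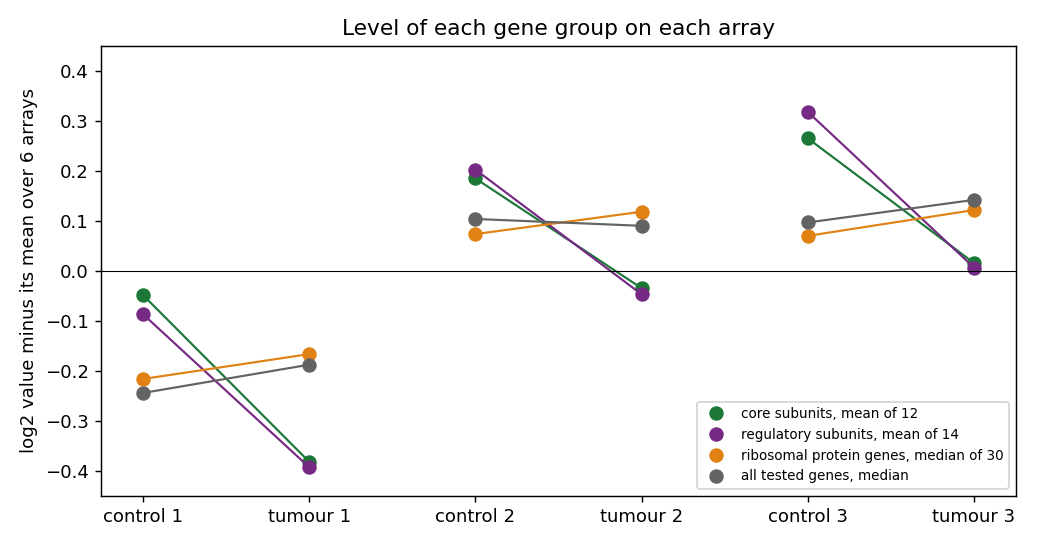
Level of 4 gene groups on each array, in log2 minus the group's own mean over 6 arrays, with lines joining the control and tumour arrays of each replicate number. Core and regulatory subunits differ by -0.33 to -0.22 and -0.31 to -0.25 in the pairs, while ribosomal protein genes differ by 0.04 to 0.05 and the median of tested genes by -0.01 to 0.06.

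The alpha ring gates access to the proteolytic chamber, and 5 of its 6 measured genes fell in the paired fit. Over all tested genes that fit called 5.38% lower. The unpaired fit called 0 of the 6 (0.372% of tested genes), and replicates 2 and 3 alone called 1 (4.19%). Prosalpha7 read 12.85, 12.89 and 12.91 in tumour replicates 1 to 3 and 13.05, 13.09 and 13.11 in control. Its genotypes did not overlap, its replicates lay closer together than those of any other of the 26 genes, and the difference was -0.20 ± 0.036 (SE of the paired fit, adjusted p = 0.037). Prosalpha5 read 12.31, 12.47 and 12.58 in tumour and 12.68, 12.71 and 12.81 in control, again without overlap, a difference of -0.28 ± 0.048 (adjusted p = 0.033). Prosalpha6, with the widest replicate spread of the ring, read 11.96, 12.62 and 12.68 in tumour and 12.37, 12.84 and 12.94 in control, overlapping, and fell by 0.30 on the log2 scale (adjusted p = 0.035). Prosalpha2 and Prosalpha3 fell by 0.21 and 0.30. Prosalpha4 had the smallest difference of all 26, -0.19, and was not called (adjusted p = 0.054), although its genotypes did not overlap. The probe set that Prosalpha1 shares with its duplicate Prosalpha1R, which belongs to neither gene alone and is no member, went the other way: it read 12.84, 13.46 and 13.50 in tumour and 12.81, 13.15 and 13.29 in control, 0.18 higher (paired adjusted p = 0.13).

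The beta ring carries the proteolytic sites, and 5 of its 6 measured genes fell in the paired fit, against 5.38% of tested genes. Of the 6, 0 were called in the unpaired fit (0.372% of tested genes) and 4 with replicates 2 and 3 alone (4.19%). Prosbeta5, the chymotrypsin-like subunit, read 12.67, 13.14 and 13.15 in tumour replicates 1 to 3 and 13.05, 13.36 and 13.45 in control. Each tumour array was below the control array of its number, and the genotypes overlapped through control replicate 1; the difference was -0.30 ± 0.046 (adjusted p = 0.027). Prosbeta2, the trypsin-like subunit, read 12.66, 13.19 and 13.18 in tumour and 13.07, 13.35 and 13.37 in control, a difference of -0.25 with a paired 95% interval of -0.41 to -0.09 that missed the threshold (adjusted p = 0.074). The gap was widest in pair 1. Prosbeta4, a subunit without a proteolytic site, had the largest difference of the core particle, reading 12.29, 12.55 and 12.68 in tumour and 12.64, 12.83 and 13.02 in control, -0.32 ± 0.039 (adjusted p = 0.015). Prosbeta3, Prosbeta6 and Prosbeta7, likewise without a site, fell by 0.30, 0.27 and 0.29.

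In the base of the regulatory particle, all 4 measured Rpt ATPases, the subunits that unfold and thread the substrate, fell in the paired fit. That fit called 5.38% of tested genes lower. The unpaired fit called 0 of the 4 ATPases (0.372% of tested genes), and replicates 2 and 3 alone called 1, Rpt3 (4.19%). Rpt5 read 11.74, 12.11 and 12.06 in tumour replicates 1 to 3 and 12.16, 12.30 and 12.46 in control. Every tumour value lay below every control value, and the difference was -0.34 ± 0.061 (adjusted p = 0.038). Rpt2, Rpt3 and Rpt4 fell by 0.27, 0.25 and 0.30. Of the other base subunits, the scaffold Rpn2 and the ubiquitin receptor Rpn13 fell by 0.25 and 0.27. Rpn1, the scaffold on which Usp14 docks, read 11.32, 12.10 and 12.09 in tumour and 11.93, 12.27 and 12.48 in control. Its pair differences of -0.61, -0.17 and -0.39 were the most uneven of the base, and its mean difference of -0.39 was not called (adjusted p = 0.063).

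In the lid 4 of 7 measured genes fell in the paired fit, against 5.38% of tested genes. Of the 7, 0 were called in the unpaired fit (0.372% of tested genes) and 2 with replicates 2 and 3 alone (4.19%). Rpn11, the metalloprotease that cuts ubiquitin from the substrate, had the largest difference of the 26: it read 12.01, 12.31 and 12.35 in tumour replicates 1 to 3 and 12.42, 12.70 and 12.77 in control. The genotypes did not overlap, the pair differences were -0.42, -0.39 and -0.43, and the mean was -0.41 ± 0.038 (adjusted p = 0.0094). Rpn3, a scaffold of the lid, read 11.70, 12.37 and 12.42 in tumour and 12.18, 12.64 and 12.80 in control, a difference of -0.38 ± 0.052 (adjusted p = 0.021). Rpn12 and Rpn7, also scaffold subunits, fell by 0.32 and 0.24. Rpn8, the partner of Rpn11 without its activity, and the scaffold Rpn5 had differences of -0.20 each and were not called (adjusted p = 0.055 and 0.064).

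Rpn6, a lid scaffold known in yeast to clamp the regulatory particle to the alpha ring, was the exception in pattern. It read 12.26, 11.92 and 12.10 in tumour replicates 1 to 3 and 12.20, 12.40 and 12.40 in control. It was the 1 gene of the 26 whose tumour replicate 1 was the highest of its genotype, so that pair 1 differed by 0.06 and pairs 2 and 3 by -0.48 and -0.29. Its mean difference of -0.24 had a paired 95% interval of -0.51 to 0.04 (adjusted p = 0.21). With replicates 2 and 3 alone it was called, at -0.39 (adjusted p = 0.048).

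**Figure D3:**
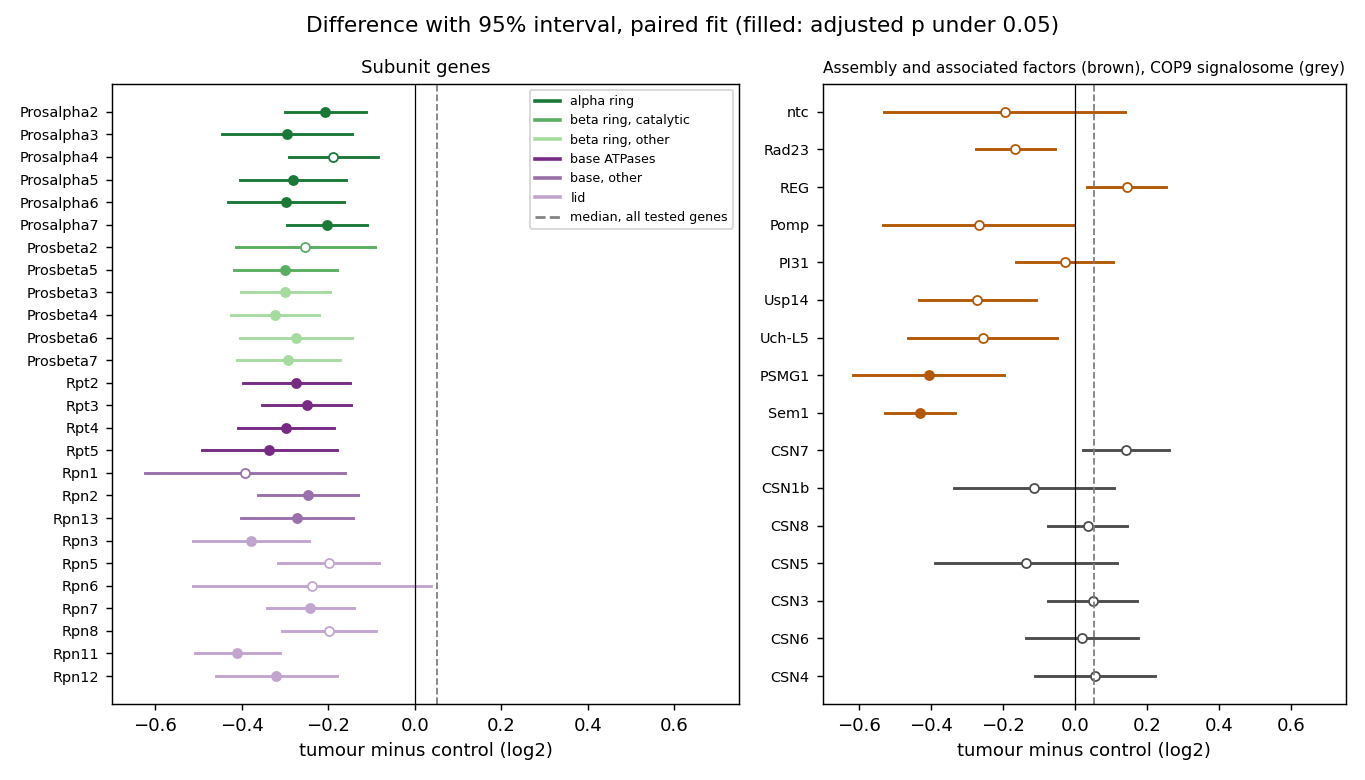
Tumour minus control difference in log2 with the 95% interval of the paired fit, for the 26 subunit genes on the left and for the assembly and associated factors and the COP9 signalosome on the right; filled points have an adjusted p under 0.05, and the dashed line is the median of all tested genes, 0.05. Of the 26 subunit intervals 25 lie below 0, that of Rpn6 reaching 0.04, while the intervals of 6 of 7 COP9 genes include 0. Intervals below 0 were held by 793 of all 6447 tested genes and by 80 of the 333 others in the same range of mean.

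Core and regulatory particles were lower by nearly the same amount. The 10 called genes of 12 in the core and 10 of 14 in the regulatory particle are set against the same 5.38% of all tested genes. Among the 333 other tested genes in the same range of mean the share was 12.01%. The median difference was -0.29 in the core and -0.27 in the regulatory particle, while the mean differences, -0.27 and -0.29, had the opposite order. Averaged over its genes, the core read 12.46, 12.81 and 12.86 in tumour replicates 1 to 3 and 12.79, 13.03 and 13.11 in control. The regulatory particle read 11.88, 12.22 and 12.28 in tumour and 12.18, 12.47 and 12.59 in control. The core average minus the regulatory average was 0.58 ± 0.002 (SD, n = 3) in tumour discs and 0.56 ± 0.046 (SD, n = 3) in controls. This gap differed between genotypes by -0.03, 0.03 and 0.06 in the 3 pairs, changing sign between them, and its mean difference of 0.02 was smaller than their SD of 0.045. The regulatory genes were more uneven: their differences had an SD over genes of 0.069 against 0.045 in the core.

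The differences of the 26 genes had an SD of 0.059 log2 and quartiles at -0.30 and -0.24. Over all tested genes the SD was 0.339, with quartiles at -0.07 and 0.17. The 333 other tested genes with means in the same range, 11.9 to 13.2, had a median difference of 0.00 with an SD of 0.245, 49.2% of them were below 0 and 12.01% were called lower in the paired fit. The 30 cytoplasmic ribosomal protein genes, with means from 7.27 to 15.7, had a median of 0.06 and quartiles of 0.03 and 0.07, closer together than those of the subunits. Of them 1, RpS5b, was called higher, at 1.35 (paired adjusted p = 0.0062), with 3 below 0 and 0 called lower in the paired fit by limma, or at an unadjusted p under 0.05. The members lay on every major chromosome arm, with 4 genes on 2L, 7 on 2R, 4 on 3L, 8 on 3R and 3 on X. Their medians by arm ran from -0.35 on 2L to -0.25 on X.

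**Figure D4:**
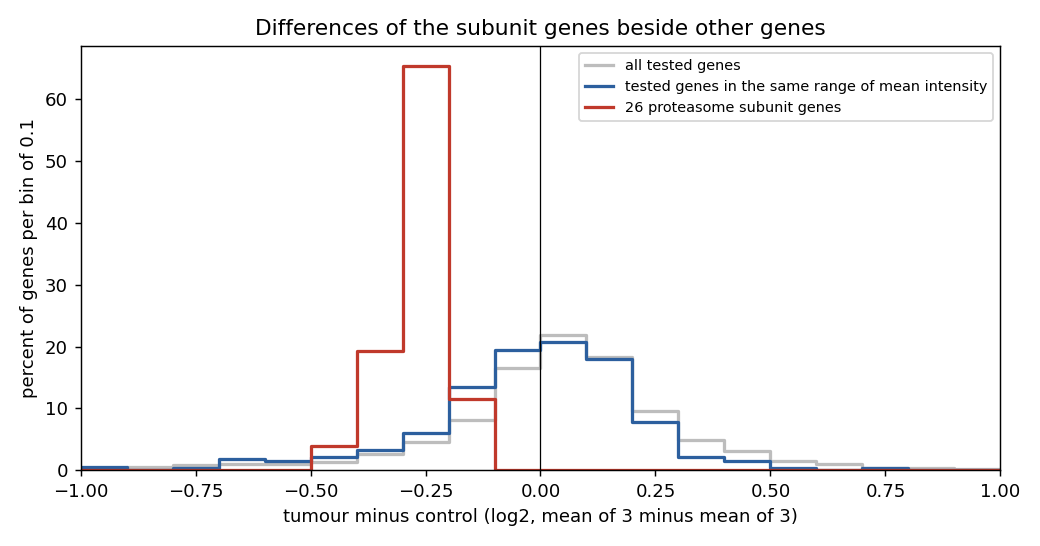
Percent of genes in each bin of 0.1 log2 of the tumour minus control difference, for all 6447 tested genes, for 333 of them in the same range of mean intensity and for the 26 subunit genes; 133 of all tested genes and 2 of the 333 lie outside the axis. The subunit genes fill the bins from -0.5 to -0.1, with 17 of them between -0.3 and -0.2, while both other groups centre near 0.

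Replicate 1 was lower than replicates 2 and 3 for 25 of the 26 genes in tumour, by a median of -0.37, and for all 26 in control, by -0.29. The shift was shared with other genes, whose median was -0.31 in tumour and -0.36 in control. It differed between subunits far more than the genotype difference did. In tumour it ran from -0.77 in Rpn1, -0.69 in Rpn3 and -0.68 in Prosalpha6 to -0.05 in Prosalpha7 and 0.25 in Rpn6, and in control from -0.62 in Rpn2 to -0.05 in Prosalpha7. This spread between replicates, with an SD of up to 0.447 in tumour and 0.358 in control, entered the error of the unpaired fit, whose SE lay between 0.073 and 0.254 against 0.036 to 0.107 in the paired fit.

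Of the 14 paralogues, 13 gave no measured level in either genotype. Prosalpha3T, Prosalpha4T1, Prosalpha4T2, Prosalpha6T, Prosbeta2R1, Prosbeta2R2, Prosbeta4R1, Prosbeta5R1, Prosbeta5R2, Rpn12R and Rpt4R, or 11 of the 14, lay at the floor of the scale, 2.17, on all 6 arrays. Prosbeta4R2 and Rpn13R lay just above it, with a highest value of 2.67. Each of the 14 has its partner among the 26 genes measured in these discs. No fold is given for the 13, since both genotypes were below the bound. Rpt3R was the exception, a paralogue of the ATPase gene Rpt3. It read 5.73, 5.69 and 5.98 in tumour replicates 1 to 3 and 5.35, 5.84 and 6.11 in control. The genotypes overlapped, and the difference was 0.03 with a paired 95% interval of -0.34 to 0.41 (adjusted p = 0.89). Its partner Rpt3 fell by 0.25, reading 12.01, 12.25 and 12.27 in tumour and 12.24, 12.48 and 12.56 in control. The difference between the 2 genes' responses was not tested. Germline markers were likewise absent: aly, can, sa, topi, bam, betaTub85D and the other 5 lay at or just above the floor, with a summed log2 signal of 5.62 to 5.63 over the arrays.

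**Figure D5:**
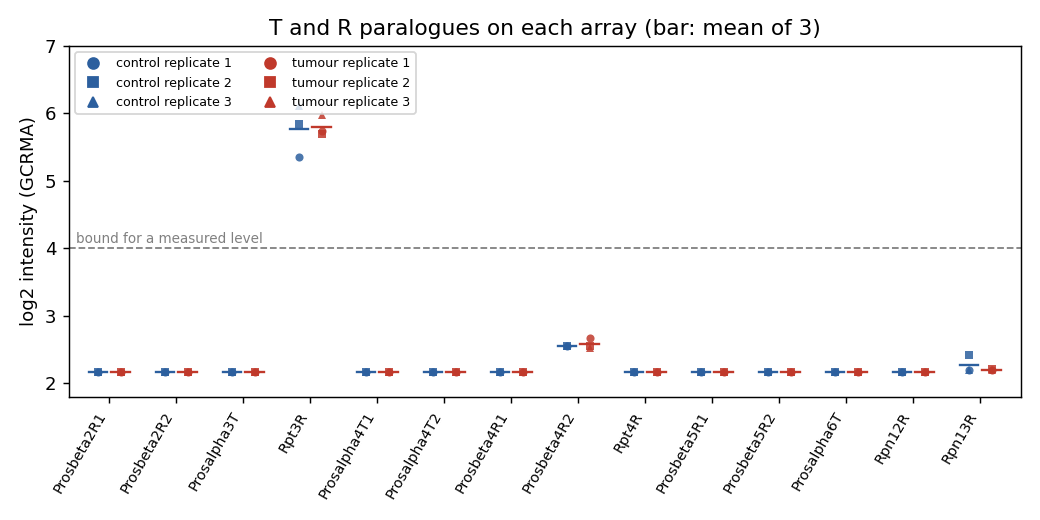
Log2 intensity of the 14 T and R paralogues on each array, control in blue and tumour in red, with a bar at the mean of 3 and a dashed line at the bound of 4. Rpt3R alone lies above the bound, between 5.35 and 6.11, and 11 of the 14 sit at the floor of 2.17 on every array.

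Genes that work with the proteasome were mixed. Of 9 measured assembly and associated factors 2 fell and 0 rose in the paired fit, against 5.38% lower and 4.06% higher over all tested genes. Their median difference was -0.26. Sem1, which encodes a small lid subunit that the naming rule leaves out, read 12.25, 12.37 and 12.48 in tumour replicates 1 to 3 and 12.71, 12.79 and 12.89 in control. Its genotypes did not overlap, and it fell by 0.43 on the log2 scale (SE 0.038, adjusted p = 0.0080, unpaired 0.175). PSMG1, a chaperone of alpha ring assembly, read 9.34, 9.72 and 9.77 in tumour and 9.94, 10.01 and 10.10 in control, also without overlap, a difference of -0.41 ± 0.081 (adjusted p = 0.047). Pomp, the chaperone that matures the core, read 12.49, 11.29 and 11.60 in tumour and 12.54, 11.84 and 11.81 in control, lower in all 3 pairs, and its difference of -0.27 was not called (adjusted p = 0.17). The proteasome-bound deubiquitinases Usp14 and Uch-L5 had differences of -0.27 and -0.26 and the shuttle Rad23 of -0.17, with all 3 pairs lower in each and adjusted p-values of 0.067, 0.12 and 0.080. The alternative activator REG was at 0.14 (adjusted p = 0.10).

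The 5 tested genes known to control proteasome gene expression showed no call in either fit, and with replicates 2 and 3 alone, where 4.19% of tested genes were called lower, 1 was called lower, rngo, which encodes the fly relative of the protease Ddi1 (adjusted p = 0.026). The transcription factor gene cnc read 11.48, 11.49 and 11.49 in tumour and 11.46, 11.57 and 11.56 in control, a difference of -0.05 (adjusted p = 0.54). Its DNA-binding partner maf-S, the 1 gene of the 5 whose paired 95% interval (0.05 to 0.30) lay off 0, was at 0.18 (adjusted p = 0.090) and its inhibitor Keap1 at 0.17 (adjusted p = 0.41). Among 10 tested genes of ubiquitin supply and of the p97 segregase, 1 was called in the paired fit, the polyubiquitin gene Ubi-p5E, which fell by 0.39, a count near the 5.38% of all tested genes. It read 13.07, 12.69 and 12.74 in tumour and 13.44, 13.17 and 13.06 in control, where only tumour replicate 1 and control replicate 3 overlapped, with an adjusted p of 0.014. The other polyubiquitin gene, Ubi-p63E, was at -0.04 (adjusted p = 0.50), and TER94, the p97 gene itself, at -0.08 (adjusted p = 0.24). Of these 10 genes 8 had a lower mean in tumour, with a median difference of -0.11. In all 3 same-number pairs 7 were lower, against 20.6% of tested genes, and 1 was higher.

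The COP9 signalosome, a complex related in architecture to the proteasome lid, removes the ubiquitin-like protein Nedd8 from cullins. It was measured by 7 genes, with 0 called by limma in the paired, unpaired and replicates 2 and 3 fits. Over all tested genes the paired fit called 5.38% lower and 4.06% higher, so 0 of 7 is near that share. The median difference of the 7 COP9 genes was 0.03, beside -0.24 for the 7 lid genes. CSN5, the metalloprotease subunit that corresponds to Rpn11, read 10.31, 10.47 and 10.47 in tumour replicates 1 to 3 and 10.28, 10.88 and 10.51 in control, overlapping, a difference of -0.14 (adjusted p = 0.40). CSN7 had the smallest p of the list, at 0.14 (paired 95% interval 0.02 to 0.26, adjusted p = 0.12), and was the 1 gene of the 7 with an unadjusted paired p under 0.05. The difference between the complexes was not tested.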

How the data were processed

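The authors deposited 1 log2 intensity for each of 18952 probe sets on each of 6 one-colour Affymetrix Drosophila Genome 2.0 arrays, made with GCRMA per the submitters' processing notes, whose version was not stated. The log2 scale was read from the values. Nothing was renormalized for the values reported first. Platform annotation named 1 gene for 13647 of 18769 non-control probe sets; identifiers of 13544 matched the NCBI table of Release 6, used for names and chromosome arms. Probe sets reaching 4 on at least 3 arrays were tested: 7962, for 6447 genes, each gene counted by its brightest.

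limma 3.58.1 in R 4.3.3 (eBayes with trend) compared tumour with control, two-sided; adjustment was Benjamini-Hochberg over tested probe sets. The planned fit was unpaired; alternatives changed the replicate block, filter, scaling, trend and arrays used. Deviations from genotype means correlated at 0.794, 0.467 and 0.723 between same-numbered arrays, each over the bound of 0.1, so the number was used as a block, on the evidence of the values alone; tumour 2 with control 3 (0.668) and tumour 3 with control 2 (0.473) correlated too, so pairing within replicates 2 and 3 is not shown, and a block of replicate 1 against both was added after seeing the data. The fits were run on data simulated from the paired model with independent noise, which cannot show which fit suits these arrays. Unpaired p-values measure the spread between arrays of a genotype, each a disc pool, with the replicate 1 shift in it. Paired p-values measure the spread left once the replicate number is fitted. Array number limits precision. Members and lists were chosen with earlier results of these data known. The naming rule took all members and, of the 4 lists of related genes, those that were called or had the smallest p in their list; the other list genes given were chosen after their values were seen. Sequence comparisons of subunits and promoters were not made here.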

Additional observations from a re-analysis of the deposited data

How the results depend on the processing

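The calls depended on whether the replicate number entered the fit, on the arrays used and on the scaling. The sign of the core and regulatory differences did not. All 26 core and regulatory genes kept a lower mean in tumour under each scaling and with each single array left out, and their median minus that of all tested genes ran from -0.36 to -0.29. The median of all tested genes itself moved to 0.15 without tumour replicate 1 and to -0.07 without control replicate 1. The unpaired fit called 0 of the 26 and 33 of all tested genes (5 of the 26 at an unadjusted p under 0.05, and 563 genes). The paired fit with a replicate block called 20 and 609, and replicates 2 and 3 alone 9 and 462. Unpaired, quantile normalization called 1 of the 26 and 179 genes, centring on the tested median 2 and 145, and centring on ribosomal protein genes 3 and 145. Without a filter 0 and 1 were called, and with each array left out 0 of the 26 and 0 to 13 genes. Alternatives chosen after seeing the data, all with a replicate block, called 25 and 970 with replicate 1 set against 2 and 3, 14 and 434 without replicate 1, 9 and 384 without replicate 2 and 0 and 0 without replicate 3 (22 of the 26 at an unadjusted p under 0.05, and 953 genes), 25 and 635 centred on ribosomal protein genes, 21 and 861 after quantile normalization, and 23 and 793 centred on the tested median. The median difference ran from -0.39 to -0.14 in the core and from -0.41 to -0.15 in the regulatory particle when single arrays were left out, and the regulatory median was -0.32 centred on ribosomal protein genes. The Rpt3R difference of 0.03 changed sign, to -0.14 with replicates 2 and 3 alone or with the block without replicate 1, to -0.014 centred on ribosomal protein genes with or without the block, and with single arrays left out it ran from -0.17 (without control replicate 1) to 0.21 (without control replicate 3), with -0.05 without tumour replicate 3. It was called in none of these. The causes were not tested, except that leaving out arrays leaves fewer samples.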
